A study of Homo sapiens with 12 samples.

Results

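The expression of 46 genes of glycolysis and of the response to low oxygen was followed in 2 oral squamous carcinoma lines, SCC-15 and CAL-27, after knockdown of TTK, a kinase of the spindle assembly checkpoint. The genes were chosen by name, as lines of the count table whose gene symbol equals one of the listed names. That rule uses no measured value, but the names were listed with earlier results of these data known. They are 46 of the 58735 lines of the table and fall into 16 glycolytic enzymes, 4 glucose and lactate transporters, 3 regulators of glycolytic flux, 2 glycogen enzymes, 5 subunits and oxygen-dependent regulators of the hypoxia-inducible factor (HIF), and 16 other HIF targets. Poly(A) RNA was sequenced in 12 libraries, 3 in each of 4 groups. These were SCC-15 cells with a short hairpin RNA against TTK (shTTK), SCC-15 cells labelled shControl, CAL-27 cells with shTTK, and CAL-27 cells labelled shControl. The labels call the shControl samples wild type as well, list every sample as untreated and place all libraries in batch 1. Both lines come from squamous carcinomas of the human tongue, and each stands for a single tumour. The labels do not say that replicates of a group came from separate cultures, so a p-value covers only the spread between these libraries, which may be technical. The labels used here give neither the oxygen level nor the glucose content of the medium.

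Glycolysis turns glucose into pyruvate in the cytosol and yields ATP without oxygen, and many carcinomas send the pyruvate on to lactate, which leaves the cell through monocarboxylate transporters. HIF is a dimer of an oxygen-labile alpha subunit, encoded by HIF1A or EPAS1, and a stable beta subunit. When oxygen is present, prolyl hydroxylases such as those encoded by EGLN1 and EGLN3 mark the alpha subunit, and VHL, part of a ubiquitin ligase, then sends it for destruction. HIF that escapes binds short hypoxia-response elements and raises the transcription of most glycolytic enzymes, of angiogenic factors such as VEGFA, and of genes for acid export, collagen modification and mitophagy. The alpha subunit is governed mainly at the protein level, so the mRNA of HIF1A does not report its activity.

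Promoter sequence was available for 38 of the 46 genes in the RefSeq table (build GRCh38.p14, 250 bases before to 50 bases after the annotated start). The HIF targets VEGFA, NDRG1, BNIP3L, HILPDA and FUT11 were not among them, nor were VHL, SLC2A3 and SLC16A1. The core of the hypoxia-response element was searched as ACGTG and as GCGTG on both strands, with overlapping matches counted separately, so that the palindrome CACGTG counts as 2 matches. At least 1 match was present in 28 of these 38 promoters (73.7%), in 12 of the 16 enzyme promoters (75%) and in 9 of 11 HIF target promoters (81.8%). The same search found a match in 48.4% of all 27305 promoters in the table and in 62.4% of the 11162 promoters of genes tested here. A match describes letters in this window and is not evidence of a bound site. Promoters are shown for 3 of the genes that were lowest in SCC-15 controls relative to CAL-27 controls (CA9, LOX and EGLN3) and for LDHA, an enzyme that differed little between the lines. Capitals mark the matches, on either strand, and every sequence reads 5′ to 3′ on the strand of its gene. CA9 (chr9:35673678-35673977, plus strand) held 1 match, LOX (chr5:122078210-122078509, minus strand) held 4, EGLN3 (chr14:33951025-33951324, minus strand) held none in this window, and LDHA (chr11:18394313-18394612, plus strand) held 6.
CA9: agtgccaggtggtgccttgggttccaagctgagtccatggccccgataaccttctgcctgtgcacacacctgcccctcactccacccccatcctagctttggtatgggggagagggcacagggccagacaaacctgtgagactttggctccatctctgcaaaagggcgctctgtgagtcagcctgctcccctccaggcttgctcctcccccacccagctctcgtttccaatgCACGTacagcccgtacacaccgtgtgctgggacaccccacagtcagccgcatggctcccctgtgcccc
LOX: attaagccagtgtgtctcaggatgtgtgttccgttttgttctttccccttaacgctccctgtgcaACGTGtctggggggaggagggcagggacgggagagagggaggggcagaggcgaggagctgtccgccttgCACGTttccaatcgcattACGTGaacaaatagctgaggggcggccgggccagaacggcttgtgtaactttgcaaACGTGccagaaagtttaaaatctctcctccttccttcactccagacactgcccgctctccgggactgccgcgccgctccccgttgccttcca
EGLN3: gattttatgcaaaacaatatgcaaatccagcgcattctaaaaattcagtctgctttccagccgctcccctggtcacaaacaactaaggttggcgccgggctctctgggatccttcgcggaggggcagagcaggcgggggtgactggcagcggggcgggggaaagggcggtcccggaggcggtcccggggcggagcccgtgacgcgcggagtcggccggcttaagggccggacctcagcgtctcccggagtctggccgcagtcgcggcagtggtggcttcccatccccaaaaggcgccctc
LDHA: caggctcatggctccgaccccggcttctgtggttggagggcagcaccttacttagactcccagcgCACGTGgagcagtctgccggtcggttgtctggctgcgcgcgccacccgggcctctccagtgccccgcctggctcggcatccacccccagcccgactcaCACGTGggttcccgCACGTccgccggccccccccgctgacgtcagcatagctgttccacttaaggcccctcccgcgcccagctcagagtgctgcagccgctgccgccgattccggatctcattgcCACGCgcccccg

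The libraries held between 16176655 and 18484112 counts, and levels are given as CPM, the count relative to the total of the library, scaled by the trimmed mean of M-values (TMM). TTK itself had 26.9, 29.2 and 34.3 CPM in SCC-15 shTTK libraries, against 67.5, 69.4 and 72.9 CPM in SCC-15 shControl libraries (log2 fold change -1.21 ± 0.065). In CAL-27 it had 35.6, 32.5 and 33.5 CPM with shTTK, against 46.4, 48.4 and 53.4 CPM with shControl (log2 fold change -0.54 ± 0.066), and the fall was larger in SCC-15 by 0.67 ± 0.093 on the log2 scale. In each SCC-15 group the library numbered 1 stood apart from the other 2, and the share of mitochondrial transcripts was 2.35 to 2.69% in SCC-15 shTTK libraries, against 2.94 to 3.86% in SCC-15 shControl libraries. The 9 squamous epithelial markers were present in every library, with summed levels of 8150 to 8178 CPM in SCC-15 shTTK, 8488 to 8846 CPM in SCC-15 shControl, 4879 to 4937 CPM in CAL-27 shTTK and 2889 to 3032 CPM in CAL-27 shControl. The 4 leukocyte markers summed to at most 0.71 CPM in any library.

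In all 4 groups the enzymes of the later glycolytic steps dominated these genes. Levels of different genes are compared as CPM per kilobase of annotated exon. In SCC-15 shControl cells GAPDH, which oxidises glyceraldehyde phosphate, led with 1440.2 ± 9.94 CPM per kilobase, ENO1, an enolase, followed with 844 ± 5.28, and TPI1, the triose phosphate isomerase, had 424 ± 5.14 (SD, n = 3). In CAL-27 shControl cells GAPDH again led with 1092 ± 33.8, ENO1 had 809.8 ± 6.81, and PKM, the pyruvate kinase, was next with 479 ± 4.28. All annotated exons of a gene count in its length, so this order depends on the length used. Before division by length, ENO1 had 4451 CPM in SCC-15 shControl cells, GAPDH 4293, PKM 3052 and TPI1 1143. In CAL-27 shControl cells ENO1 had 4272 CPM, PKM 4107 and GAPDH 3255. HIF1A, at 44.2 ± 1.49 CPM per kilobase in SCC-15 shControl cells and 168 ± 4.32 in CAL-27 shControl cells, held rank 11 of 46 in SCC-15 and rank 8 of 46 in CAL-27, where its values overlapped those of PGK1. SLC2A3, a neuronal-type glucose transporter, had at most 3 counts in any library and was the only gene of the 46 that failed the filter on low counts. The 45 others had a median mean level of 78.0 CPM, against 16.03 CPM over the 16946 genes tested. Processed copies of GAPDH, on 62 lines of the table, held 0.339% as many counts as GAPDH, and those of BNIP3, on 39 lines, held 1.74%. Copies of TPI1 held 1.08%, those of LDHB 0.769%, and the antisense line of SLC16A1 held 5.01%. For SLC2A3, with its few counts, the copies held 81.25%. The levels of these genes carry that uncertainty.

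Measured as a share of all counts, the enzymes summed together took nearly the same portion of the RNA in both lines, while the HIF genes did not. Such a sum gives most weight to abundant genes such as GAPDH, ENO1 and PKM. Single enzymes differed between the controls, where 15 of the 16 were called, against 76.0% of all genes tested. Of these, 2 were at least 2-fold higher and 4 at least 2-fold lower in SCC-15. The 16 enzymes held 1.87 ± 0.0149% of counts in SCC-15 shTTK libraries, 1.81 ± 0.0140% in SCC-15 shControl libraries, 1.87 ± 0.0364% in CAL-27 shTTK libraries and 1.83 ± 0.0161% in CAL-27 shControl libraries (SD, n = 3 each). The 16 other HIF targets held 0.0642 ± 0.0030% in SCC-15 shTTK libraries, 0.0642 ± 0.0035% in SCC-15 shControl libraries, 0.181 ± 0.0113% in CAL-27 shTTK libraries and 0.159 ± 0.0014% in CAL-27 shControl libraries. The 5 HIF subunits and regulators were lower in SCC-15 as well, with 0.0363 ± 0.00097%, 0.0411 ± 0.00061%, 0.140 ± 0.0031% and 0.128 ± 0.0012% in those 4 groups.

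**Figure D1:**
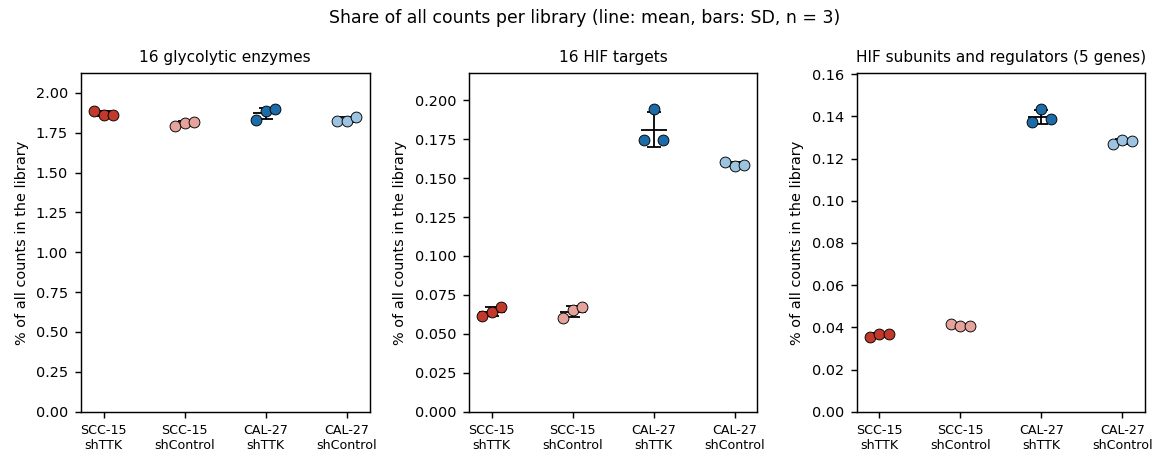
Share of all counts (% per library, vertical axes from 0) held by 3 role classes in the 4 groups; points are libraries, lines are means and bars are SD (n = 3). The enzymes summed together lie near the same share in all groups, whereas HIF subunits and targets lie lower in both SCC-15 groups.

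Set against CAL-27 controls, SCC-15 controls had lower mRNA of nearly all HIF targets and of both HIF alpha subunits, and more of the lactate transporters. Enzymes of lower glycolysis went both ways, with GAPDH and PGK1 among the higher ones and PKM, PGAM1 and LDHA among the lower ones. Of the 45 tested genes 11 were higher and 31 lower in SCC-15 (edgeR's quasi-likelihood test, Benjamini-Hochberg adjusted p under 0.05), where 76.0% of all genes tested were called. The median log2 fold change was -0.81 over the 45 genes and -0.01 over all genes. Of the 16 HIF targets 15 were lower, 9 of them at least 2-fold, with a median of -1.02, and only HILPDA did not pass. Of the 16 enzymes 6 were higher and 9 lower, with a median of -0.16. The smallest of the 6 was ENO1 (0.059 ± 0.024, adjusted p = 0.0252), which did not pass in 9 of 21 alternative settings, among them DESeq2 (adjusted p = 0.0726), RLE scaling (adjusted p = 0.105), the control libraries alone (adjusted p = 0.0523), and leaving out any CAL-27 shControl library or SCC-15 shControl library 2 or 3 (adjusted p from 0.053 to 0.106). In bulk samples fewer cells that express a gene and less RNA per cell cannot be told apart, here and in the comparisons that follow.

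CA9, a cell-surface carbonic anhydrase that helps export acid, had 1.26, 1.15 and 0.938 CPM in SCC-15 shControl libraries, against 26.02, 25.3 and 24.8 CPM in CAL-27 shControl libraries (log2 fold change -4.50 ± 0.15, adjusted p = 1.29e-41). LOX, which cross-links collagen, had 1.2001, 2.295 and 2.93 CPM in SCC-15 shControl libraries, against 23.9, 24.9 and 22.2 CPM in CAL-27 shControl libraries (log2 fold change -3.47 ± 0.14, adjusted p = 2.17e-34). ANGPTL4, an inhibitor of lipoprotein lipase, had 0.571, 0.976 and 0.762 CPM in SCC-15 shControl libraries, against 5.89, 5.87 and 5.88 CPM in CAL-27 shControl libraries (log2 fold change -2.92 ± 0.24, adjusted p = 2.29e-18). For each of these the SCC-15 libraries stood far below the lowest CAL-27 library, at levels near 1 to 3 CPM or under. CA9 overlaps ARHGEF39 on the opposite strand over 38.5% of its exon bases, and ANKRD37 overlaps UFSP2 likewise over 35.2%. Overlaps were smaller for SLC16A3 (CSNK1D, opposite strand, 5.36%) and PFKFB4 (UCN2, same strand, 4.73%). The strand setting of the authors' counting is not given in the sources used here, and the effect of these overlaps on the counts was not tested.

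VEGFA, the main angiogenic growth factor, had 58.7, 65.5 and 60.8 CPM in SCC-15 shControl libraries, against 382, 379 and 354 CPM in CAL-27 shControl libraries (log2 fold change -2.59 ± 0.040, adjusted p = 1.08e-63). PLOD2, a lysyl hydroxylase of collagen, had 53.5, 54.2 and 54.3 CPM in SCC-15 shControl libraries, against 254, 267 and 259.6 CPM in CAL-27 shControl libraries (log2 fold change -2.27 ± 0.042, adjusted p = 1.67e-58). No library of one line came near those of the other. Among the HIF machinery, EGLN3 had 12.001, 17.3 and 16.1 CPM in SCC-15 shControl libraries, against 113, 108 and 103 CPM in CAL-27 shControl libraries (log2 fold change -2.84 ± 0.11, adjusted p = 1.38e-11). HIF1A had 236, 223 and 223 CPM in SCC-15 shControl libraries, against 844, 888 and 860.3 CPM in CAL-27 shControl libraries (log2 fold change -1.93 ± 0.032, adjusted p = 1.65e-61). EPAS1, which encodes the HIF-2 alpha subunit, had 55.4, 54.1 and 56.2 CPM in SCC-15 shControl libraries, against 187, 192 and 197 CPM in CAL-27 shControl libraries (log2 fold change -1.80 ± 0.041, adjusted p = 5.51e-52). Both alpha subunits were thus lower by a similar step in every SCC-15 control library, and EGLN1 was lower by less (-0.28 ± 0.048). VHL was slightly higher in SCC-15 (0.17 ± 0.059, adjusted p = 0.00781), though not past the threshold without CAL-27 shControl library 2 (adjusted p = 0.0654).

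The 11 genes that were higher in SCC-15 controls comprised 6 enzymes, all 3 transporters tested, PFKFB4 and VHL. LDHB and both lactate transporters were among them, while LDHA was lower. SLC16A3, the lactate exporter MCT4, had 309.7, 348 and 348 CPM in SCC-15 shControl libraries, against 118, 121 and 114 CPM in CAL-27 shControl libraries (log2 fold change 1.51 ± 0.039, adjusted p = 5.44e-41). SLC16A1, the lactate transporter MCT1, had 259, 257 and 251 CPM in SCC-15 shControl libraries, against 147, 146 and 149.6 CPM in CAL-27 shControl libraries (log2 fold change 0.79 ± 0.035, adjusted p = 1.55e-33). LDHB, the lactate dehydrogenase subunit found in oxidative tissues, had 95.5, 108 and 107 CPM in SCC-15 shControl libraries, against 37.5, 43.2 and 42.7 CPM in CAL-27 shControl libraries (log2 fold change 1.33 ± 0.067, adjusted p = 1.06e-15). Each of the 3 was higher in all SCC-15 libraries than in any CAL-27 library. LDHB shares 33.4% of its exon bases with a second annotated gene, AC010197.2, and how reads in that stretch were counted is not given in the sources used here.

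PFKM, the muscle-type phosphofructokinase, had 178, 189.8 and 187 CPM in SCC-15 shControl libraries, against 89.05, 86.2 and 91.6 CPM in CAL-27 shControl libraries (log2 fold change 1.06 ± 0.039, adjusted p = 3.28e-38). PFKFB4, which sets the level of an activator of phosphofructokinase, had 20.7, 22.3 and 20.8 CPM in SCC-15 shControl libraries, against 9.21, 10.1 and 9.599 CPM in CAL-27 shControl libraries (log2 fold change 1.14 ± 0.097, adjusted p = 7.69e-18). GAPDH had 4293, 4264 and 4323 CPM in SCC-15 shControl libraries, against 3141, 3297 and 3328 CPM in CAL-27 shControl libraries (log2 fold change 0.40 ± 0.026, adjusted p = 4.63e-24). All 3 were higher in every SCC-15 library. LDHA, the lactate dehydrogenase subunit typical of glycolytic tumours, had 2017, 2047 and 2075 CPM in SCC-15 shControl libraries, against 2205, 2190.5 and 2257 CPM in CAL-27 shControl libraries (log2 fold change -0.12 ± 0.028, adjusted p = 0.000125), a small step down in SCC-15 with groups that did not overlap. The remaining enzymes that were lower in SCC-15 ranged from -0.20 (PGAM1) to -1.51 (ALDOA). Among them HK2, which traps glucose in the cell, was at -1.37 ± 0.043 and PKM at -0.43 ± 0.025. ALDOA was counted at low levels, and its exons overlap a second annotated gene, as given below. PFKP was the single enzyme that did not pass, at 0.016 ± 0.035.

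**Figure D2:**
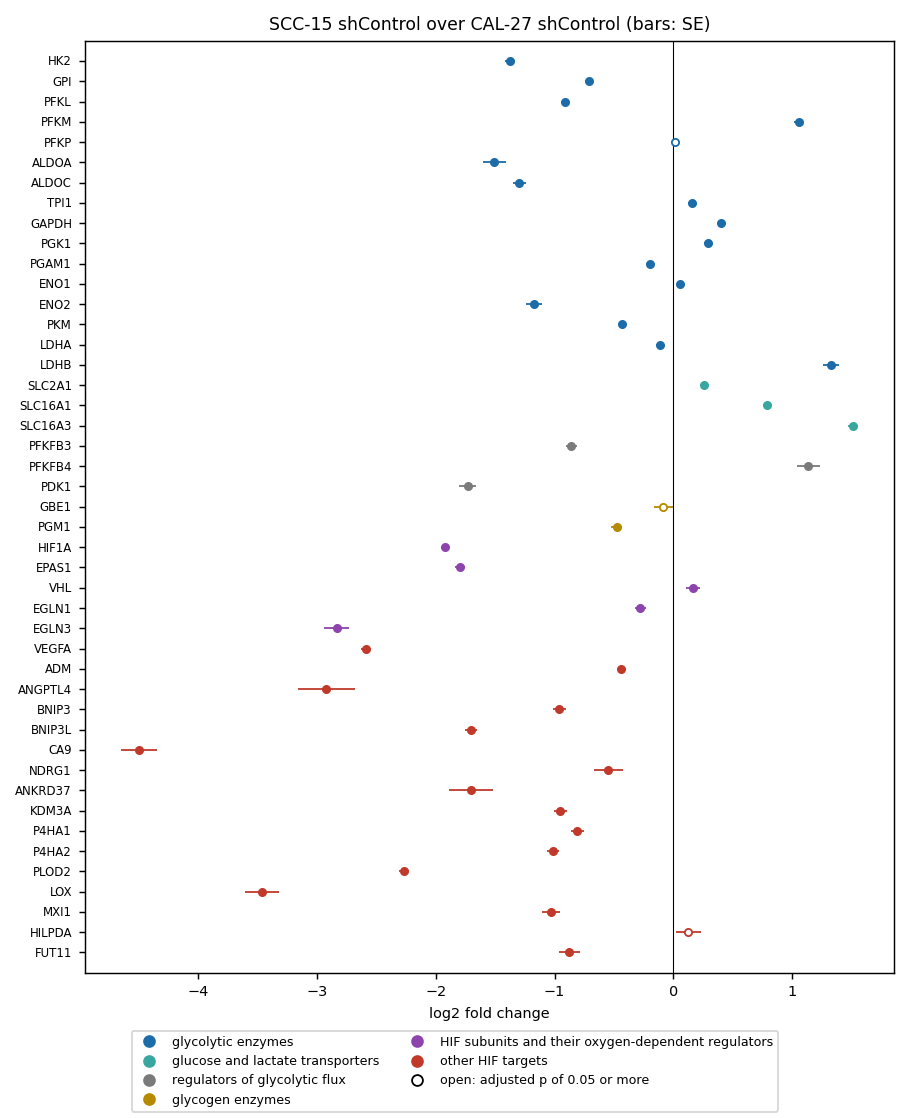
Log2 fold change of SCC-15 shControl over CAL-27 shControl for the 45 tested genes, by role; bars are SE, and the legend marks genes with adjusted p under 0.05. The HIF targets lie to the left of 0 except HILPDA, from -4.50 for CA9, and the transporters lie to the right, up to 1.51 for SLC16A3.

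Within families, the shares of single members differed between the lines, and of the families given next the main transcript was another one for the prolyl hydroxylases EGLN1 and EGLN3. Per kilobase of exon, LDHB made up 10.99 ± 0.288% of lactate dehydrogenase mRNA in SCC-15 shTTK cells, 9.51 ± 0.476% in SCC-15 shControl cells, 4.14 ± 0.459% in CAL-27 shTTK cells and 3.72 ± 0.269% in CAL-27 shControl cells (SD, n = 3 each). PFKM made up 25.5 ± 1.001%, 27.4 ± 0.5003%, 14.3 ± 0.262% and 12.7 ± 0.563% of the 3 phosphofructokinases in those groups. For the prolyl hydroxylases, EGLN3 was 14.97 ± 1.85% of EGLN1 plus EGLN3 in SCC-15 shTTK cells, 18.6 ± 3.09% in SCC-15 shControl cells, 67.97 ± 1.29% in CAL-27 shTTK cells and 57.5 ± 1.58% in CAL-27 shControl cells. EGLN1 was therefore the main transcript of the pair in SCC-15 and EGLN3 in CAL-27. The balance of the 2 alpha subunits was alike in all groups, with HIF1A at 86.2 ± 0.475%, 85.4 ± 0.453%, 87.1 ± 0.282% and 86.5 ± 0.322% of HIF1A plus EPAS1. With shTTK, the SLC16A3 share of the 2 lactate transporters was 32.8 ± 1.31% in SCC-15, against 43.6 ± 1.94% with shControl, and in CAL-27 it was 30.2 ± 1.72% with shTTK, against 31.98 ± 0.918% with shControl. These shares are descriptions without a test of their own. The limit on LDHB counts given above applies to its share as well.

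**Figure D3:**
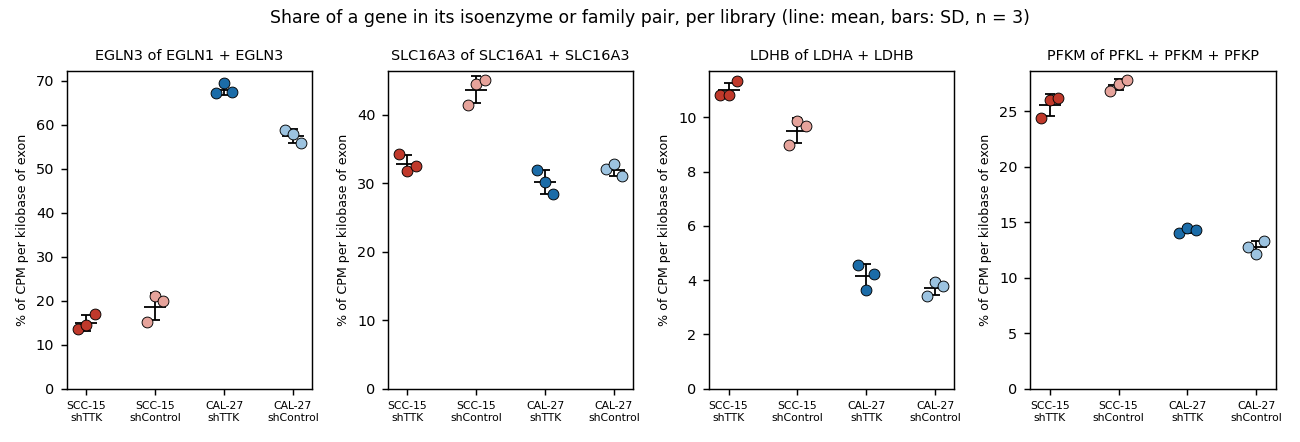
Share of 1 gene in its isoenzyme or family pair (% of CPM per kilobase of exon, vertical axes from 0) in each library of the 4 groups; lines are means and bars are SD (n = 3). The EGLN3 share lies near 15 to 19% in SCC-15 and near 57 to 68% in CAL-27.

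In SCC-15, TTK knockdown was accompanied by less mRNA of GBE1 and PGM1, of 4 of 5 HIF subunits and regulators, and of the lactate exporter SLC16A3, with small rises of several lower-glycolysis enzymes. Of the 45 genes 11 rose and 12 fell, which is 23 of 45 where 27.7% of all genes tested were called (13.4% higher and 14.3% lower). The median log2 fold change was -0.03, against 0 over all genes. Taken without sign the median was 0.146, against 0.170 over all genes. The median level of the 45 genes was 78.0 CPM, against 16.03 CPM over all genes tested. The part of that level in the share called and in the medians taken without sign was not tested. Among the 16 enzymes 6 rose (ALDOA, LDHB, ENO1, TPI1, GAPDH and PFKP) and 2 fell (ALDOC and PKM). Among the 16 HIF targets 3 rose (VEGFA, BNIP3 and ADM) and 1 fell (FUT11). Apart from ALDOA, GBE1 and EGLN3, every change called was under 1.5-fold. Besides ALDOA, the enzymes that rose did so by 0.094 (PFKP) to 0.22 (LDHB) on the log2 scale, and PKM fell by 0.11. Of the squamous epithelial markers 3 rose and 4 fell in SCC-15, and the part of these markers and of the lower mitochondrial share in the results was not tested.

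GBE1, the glycogen branching enzyme, had 17.2, 15.6 and 14.2 CPM in SCC-15 shTTK libraries, against 26.7, 24.3 and 26.2 CPM in SCC-15 shControl libraries (log2 fold change -0.72 ± 0.083, adjusted p = 4.73e-11). PGM1, which links glucose 6-phosphate to glycogen, fell as well (log2 fold change -0.27 ± 0.050, adjusted p = 1.13e-05). SLC16A3 had 258, 240.2 and 253 CPM in SCC-15 shTTK libraries, against 309.7, 348 and 348 CPM in SCC-15 shControl libraries (log2 fold change -0.42 ± 0.037, adjusted p = 2.27e-14). In GBE1 and SLC16A3 every shTTK library lay below every shControl library. SLC16A1 moved the other way, with 292, 305 and 311 CPM in SCC-15 shTTK libraries, against 259, 257 and 251 CPM in SCC-15 shControl libraries (log2 fold change 0.24 ± 0.034, adjusted p = 1.06e-08), also without overlap. SLC2A1, the ubiquitous glucose transporter GLUT1, fell (-0.19 ± 0.031).

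EGLN3 had 8.51, 8.99 and 10.8 CPM in SCC-15 shTTK libraries, against 12.001, 17.3 and 16.1 CPM in SCC-15 shControl libraries (log2 fold change -0.68 ± 0.15, adjusted p = 0.00461). EGLN1 had 53.8, 52.9 and 51.8 CPM in SCC-15 shTTK libraries, against 66.5, 64.6 and 63.98 CPM in SCC-15 shControl libraries (log2 fold change -0.30 ± 0.050, adjusted p = 1.5e-06). HIF1A had 194, 204 and 209 CPM in SCC-15 shTTK libraries, against 236, 223 and 223 CPM in SCC-15 shControl libraries (log2 fold change -0.17 ± 0.033, adjusted p = 2.38e-05). EPAS1 had 44.8, 47.5 and 45.2 CPM in SCC-15 shTTK libraries, against 55.4, 54.1 and 56.2 CPM in SCC-15 shControl libraries (log2 fold change -0.27 ± 0.048, adjusted p = 3.87e-06). For all 4 the shTTK libraries lay below the shControl libraries, and VHL was the exception of this class, at 0.12 ± 0.057 (adjusted p = 0.118). Without both SCC-15 libraries numbered 1, HIF1A still fell, by 0.11 on the log2 scale (adjusted p = 0.0151).

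ALDOA, an aldolase, had 12.6, 14.7 and 15.7 CPM in SCC-15 shTTK libraries, against 8.57, 9.296 and 10.3 CPM in SCC-15 shControl libraries (log2 fold change 0.61 ± 0.10, adjusted p = 1.4e-06). ALDOC, the other aldolase of the list, had 31.5, 32.6 and 34.5 CPM in SCC-15 shTTK libraries, against 38.6, 42.1 and 41.1 CPM in SCC-15 shControl libraries (log2 fold change -0.30 ± 0.062, adjusted p = 6.41e-05). The shTTK libraries were above the controls for ALDOA and below them for ALDOC. ALDOA was counted at low levels in every library; 42.3% of its exon bases lie under a second annotated gene on the same strand, AC093512.2, which held 834 counts in all, so reads there could be lost or split, and the effect on the level of ALDOA was not tested. LDHB had 117, 115 and 129.7 CPM in SCC-15 shTTK libraries, against 95.5, 108 and 107 CPM in SCC-15 shControl libraries (log2 fold change 0.22 ± 0.059, adjusted p = 0.00555). PFKFB4 had 26.4, 30.1 and 25.3 CPM in SCC-15 shTTK libraries, against 20.7, 22.3 and 20.8 CPM in SCC-15 shControl libraries (log2 fold change 0.36 ± 0.084, adjusted p = 0.000491). For both genes the lowest shTTK library was above the highest shControl library. GAPDH had 4678, 4597 and 4573 CPM in SCC-15 shTTK libraries, against 4293, 4264 and 4323 CPM in SCC-15 shControl libraries (log2 fold change 0.10 ± 0.026, adjusted p = 0.000814). LDHA had 2001, 1976 and 2114 CPM in SCC-15 shTTK libraries, against 2017, 2047 and 2075 CPM in SCC-15 shControl libraries (log2 fold change -0.011 ± 0.028, adjusted p = 0.826). GAPDH was thus higher in all shTTK libraries by a small step, and the LDHA groups overlapped.

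VEGFA had 74.2, 77.7 and 72.8 CPM in SCC-15 shTTK libraries, against 58.7, 65.5 and 60.8 CPM in SCC-15 shControl libraries (log2 fold change 0.28 ± 0.044, adjusted p = 3.53e-07). BNIP3, a mitophagy receptor, had 42.7, 45.2 and 51.2 CPM in SCC-15 shTTK libraries, against 38.97, 40.1 and 42.6 CPM in SCC-15 shControl libraries (log2 fold change 0.19 ± 0.059, adjusted p = 0.00773). FUT11, a fucosyltransferase, had 12.8, 14.9 and 14.6 CPM in SCC-15 shTTK libraries, against 17.1, 18.9 and 20.3 CPM in SCC-15 shControl libraries (log2 fold change -0.41 ± 0.097, adjusted p = 0.000717). The groups did not overlap for these 3, though the highest BNIP3 control was near the lowest shTTK library. BNIP3 no longer passed without shTTK library 3 (0.12, adjusted p = 0.184) or without shControl library 1 (adjusted p = 0.057). PFKP (0.094 with all libraries) did not pass without both libraries numbered 1 (0.035, adjusted p = 0.603), without shTTK library 1 (0.052, adjusted p = 0.306), without shControl library 1 (adjusted p = 0.145) or without shControl library 3 (adjusted p = 0.0771).

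**Figure D4:**
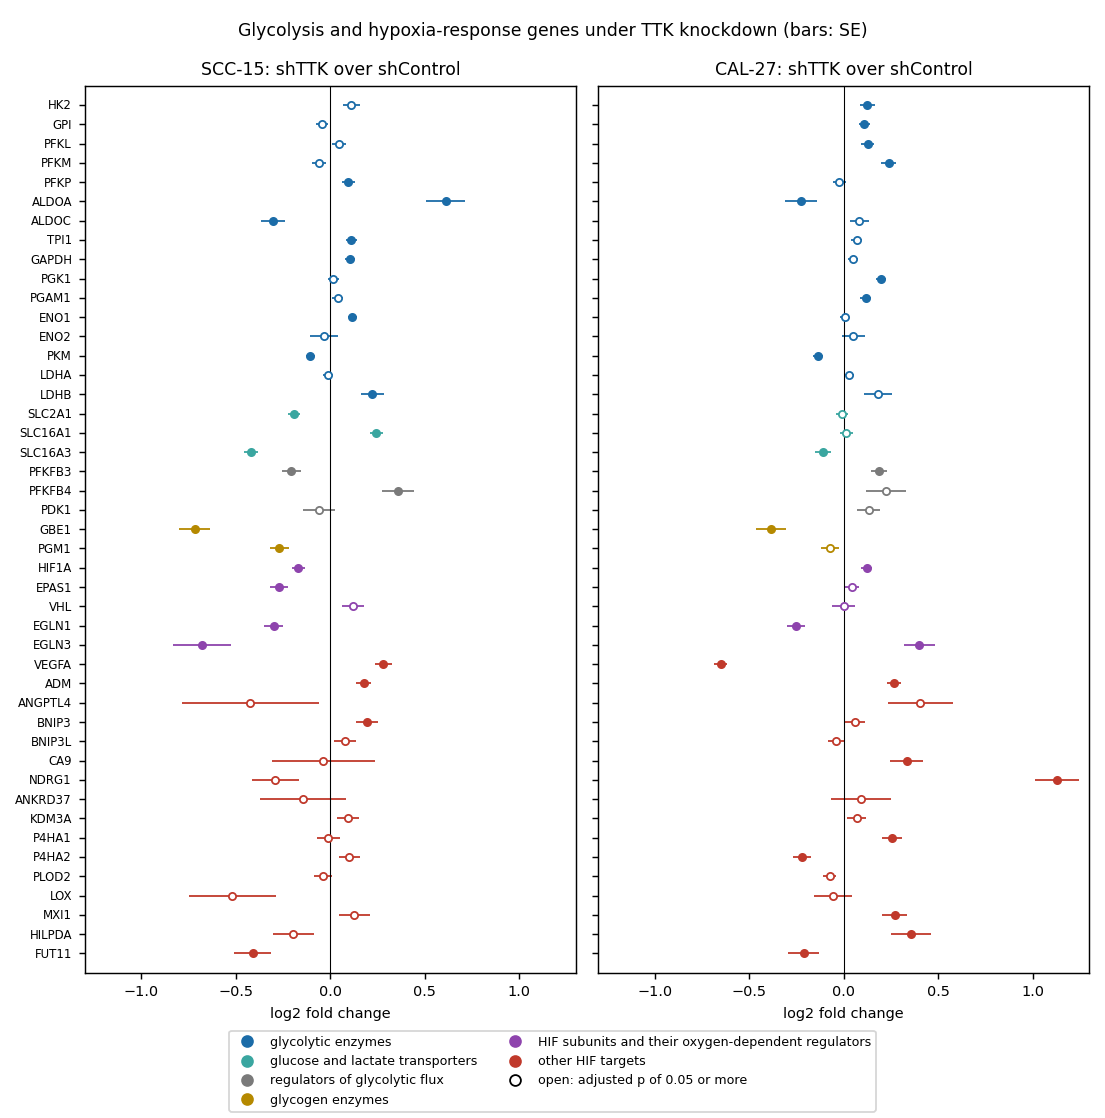
Log2 fold change of shTTK over shControl for the 45 tested genes in SCC-15 and in CAL-27, ordered by role; bars are SE, and the legend marks genes with adjusted p under 0.05. In SCC-15 the ends are GBE1 (-0.72) and ALDOA (0.61), and in CAL-27 they are VEGFA (-0.65) and NDRG1 (1.13).

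In CAL-27, TTK knockdown was accompanied by NDRG1 mRNA at 2.19 times the control level, smaller rises of EGLN3, HIF1A and 5 further HIF targets, and lower VEGFA. Of the 45 genes 15 rose and 8 fell, which is 23 of 45 where 27.3% of all genes tested were called (11.6% higher and 15.7% lower). The median log2 fold change was 0.068, against -0.01 over all genes. Taken without sign the median was 0.124, against 0.166 over all genes. The part of the higher level of these genes in that median and in the share called was not tested here either. Of the 16 enzymes 6 rose (PFKM, PGK1, PFKL, HK2, PGAM1 and GPI) and 2 fell (ALDOA and PKM). Of the 16 HIF targets 6 rose (NDRG1, HILPDA, CA9, MXI1, ADM and P4HA1) and 3 fell (VEGFA, P4HA2 and FUT11). The enzymes that rose did so by 0.11 (GPI) to 0.24 (PFKM) on the log2 scale. Only NDRG1 and VEGFA among the genes called changed by more than 1.5-fold. With library sizes taken from the other genes, 18 rose and 5 fell. The number that fell was also 5 without CAL-27 shTTK library 1, without SCC-15 shTTK library 2, and without SCC-15 shControl library 2 or 3. ALDOA, FUT11 and SLC16A3 were the falls closest to the threshold, with adjusted p of 0.036, 0.0478 and 0.0455. Beside these changes, 6 of the 9 squamous epithelial markers rose and 2 fell in CAL-27, and their summed level was 4879 to 4937 CPM with shTTK, against 2889 to 3032 CPM with shControl. The 6 fibroblast markers summed to 41.2 to 42.2 CPM in CAL-27 shTTK libraries, against 31.9 to 37.6 CPM in CAL-27 shControl libraries. COL1A1 (0.36) and LUM (2.01, with 5, 11 and 8 counts against 2, 4 and 0) rose. COL1A2 (-0.30) and PDGFRB (-0.28) were lower with shTTK and did not pass. DCN was at 0 in both groups, and COL3A1 was at 0 with shControl. Mitochondrial transcripts made up 4.47 to 4.68% of counts with shTTK, against 4.24 to 4.32% with shControl. The part of these markers and of that share in the results was not tested.

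NDRG1, a stress- and differentiation-responsive gene that is also a HIF target, had 533, 633 and 518 CPM in CAL-27 shTTK libraries, against 265, 252 and 253 CPM in CAL-27 shControl libraries (log2 fold change 1.13 ± 0.12, adjusted p = 9.18e-05), a 2.19-fold difference. All 3 shTTK libraries were far above the controls, and library 2 was the highest of them. Without that library the log2 fold change was 1.03. The same library was the highest of its group in 13 of the 16 HIF targets, whereas it was the highest in 31.2% of all genes tested. Other libraries stood out as well. CAL-27 shTTK library 1 was the lowest of its group in 12 of the 16 enzymes (33.3% of all genes tested). SCC-15 shControl library 1 was the lowest in 11 of the 16 enzymes (37.2%), and SCC-15 shControl library 3 the highest in 11 of the 16 HIF targets (33.9%). The part of these libraries in the results was not tested beyond leaving each out.

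HILPDA, a lipid droplet protein induced by low oxygen, had 15.1, 15.3 and 14.8 CPM in CAL-27 shTTK libraries, against 11.8, 11.7 and 11.9 CPM in CAL-27 shControl libraries (log2 fold change 0.35 ± 0.11, adjusted p = 0.00726). CA9 had 33.3, 34.7 and 28.1 CPM in CAL-27 shTTK libraries, against 26.02, 25.3 and 24.8 CPM in CAL-27 shControl libraries (log2 fold change 0.33 ± 0.087, adjusted p = 0.002). MXI1, an antagonist of MYC, had 38.6, 45.2 and 46.7 CPM in CAL-27 shTTK libraries, against 37.1, 34.8 and 36.5 CPM in CAL-27 shControl libraries (log2 fold change 0.27 ± 0.068, adjusted p = 0.0014). The shTTK libraries lay above the controls for each of the 3, with the smallest gap for CA9 and MXI1. ADM, the vasodilator adrenomedullin, had 152, 159.9 and 154 CPM in CAL-27 shTTK libraries, against 131, 129.5 and 128 CPM in CAL-27 shControl libraries (log2 fold change 0.26 ± 0.038, adjusted p = 2.41e-08), again with no overlap. P4HA1, an alpha subunit of collagen prolyl hydroxylase, rose by the same amount (0.26 ± 0.053), and its paralogue P4HA2 had 73.1, 81.1 and 73.2 CPM in CAL-27 shTTK libraries, against 90.4, 86.7 and 88.2 CPM in CAL-27 shControl libraries (log2 fold change -0.22 ± 0.049, adjusted p = 0.000224). The P4HA1 share of the pair was accordingly 77.2 ± 0.2595% with shTTK, against 70.8 ± 1.74% with shControl.

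VEGFA had 232, 234 and 245 CPM in CAL-27 shTTK libraries, against 382, 379 and 354 CPM in CAL-27 shControl libraries (log2 fold change -0.65 ± 0.035, adjusted p = 1.23e-26). FUT11 had 28.02, 32.4 and 28.7 CPM in CAL-27 shTTK libraries, against 30.6, 32.4 and 40.5 CPM in CAL-27 shControl libraries (log2 fold change -0.21 ± 0.082, adjusted p = 0.0478). The VEGFA groups were far apart, with shTTK libraries at 0.637 of the control level, while the FUT11 groups overlapped. The 4 endothelial markers, nearly all from CDH5, summed to 72.4 to 74.3 CPM in CAL-27 shTTK libraries, against 102 to 109.7 CPM in CAL-27 shControl libraries, and 2 of the 4 fell. In SCC-15 they summed to at most 2.25 CPM, and KDR was at 0 counts in every group; their part in the VEGFA results was not tested. FUT11 passed narrowly and did not pass in 13 of its 21 alternative settings, among them DESeq2 (adjusted p = 0.107), and its log2 fold change was -0.089 without shControl library 3, -0.15 without shTTK library 1 and -0.17 without shTTK library 3.

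EGLN3 had 135, 157 and 136 CPM in CAL-27 shTTK libraries, against 113, 108 and 103 CPM in CAL-27 shControl libraries (log2 fold change 0.40 ± 0.080, adjusted p = 0.00213). EGLN1 had 65.3, 68.1 and 65.03 CPM in CAL-27 shTTK libraries, against 77.9, 77.5 and 81.1 CPM in CAL-27 shControl libraries (log2 fold change -0.25 ± 0.048, adjusted p = 2.28e-05). HIF1A had 932, 948 and 940.0 CPM in CAL-27 shTTK libraries, against 844, 888 and 860.3 CPM in CAL-27 shControl libraries (log2 fold change 0.12 ± 0.030, adjusted p = 0.00106). EPAS1 had 192, 197 and 203 CPM in CAL-27 shTTK libraries, against 187, 192 and 197 CPM in CAL-27 shControl libraries (log2 fold change 0.043 ± 0.037, adjusted p = 0.438). EGLN3 and HIF1A were higher and EGLN1 lower in all shTTK libraries, and the EPAS1 groups overlapped.

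GBE1 had 20.2, 22.2 and 20.2 CPM in CAL-27 shTTK libraries, against 27.3, 26.7 and 27.7 CPM in CAL-27 shControl libraries (log2 fold change -0.39 ± 0.080, adjusted p = 8.81e-05). ALDOA had 21.98, 22.3 and 24.2 CPM in CAL-27 shTTK libraries, against 27.7, 25.7 and 26.8 CPM in CAL-27 shControl libraries (log2 fold change -0.23 ± 0.084, adjusted p = 0.036). For both, the highest shTTK library was below the lowest control library, with the limit on ALDOA counts given above. ALDOA did not pass in 11 of 21 alternative settings, among them DESeq2 (adjusted p = 0.0671), and its adjusted p was 0.177 without shTTK library 1 and 0.117 without shControl library 1. GAPDH had 3311, 3326 and 3479 CPM in CAL-27 shTTK libraries, against 3141, 3297 and 3328 CPM in CAL-27 shControl libraries (log2 fold change 0.051 ± 0.026, adjusted p = 0.142). LDHA had 2172, 2298 and 2307 CPM in CAL-27 shTTK libraries, against 2205, 2190.5 and 2257 CPM in CAL-27 shControl libraries (log2 fold change 0.027 ± 0.027, adjusted p = 0.534). The shTTK and shControl values of GAPDH and of LDHA overlapped. SLC16A3 fell by 0.11 on the log2 scale (adjusted p = 0.0455), but it did not pass in 16 of 21 alternative settings, among them DESeq2 (adjusted p = 0.1) and the fit with a replicate block (adjusted p = 0.0599). Its fall was 0.06 without shTTK library 3 and 0.071 without shControl library 2. HK2, at 0.12 with all libraries, did not pass without shTTK library 2 (0.078, adjusted p = 0.213) or without shControl library 3 (adjusted p = 0.0631).

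The change under knockdown in SCC-15 differed from that in CAL-27 for 20 of the 45 genes, 5 with the higher and 15 with the lower change in SCC-15, where 25.4% of all genes tested were called. Each comparison uses its own control libraries, and the differences below are on the log2 scale, as the change in SCC-15 minus that in CAL-27. The median difference taken without sign was 0.1814 over the 45 genes, against 0.2375 over all genes tested. Enzymes contributed 2 higher and 4 lower differences, HIF targets 2 higher and 3 lower, and HIF subunits and regulators 3 lower. VEGFA had the smallest adjusted p of the set. It rose in SCC-15 (0.28) and fell in CAL-27 (-0.65), a difference of 0.93 ± 0.057 (adjusted p = 1.41e-23). ALDOA moved in the same pair of directions, which 2.9% of all genes showed, with a difference of 0.84 ± 0.13 (adjusted p = 4.57e-07). Its fall in CAL-27 did not pass in 11 of 21 alternative settings, and the limit on its counts given above applies.

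HIF1A, PFKFB3 and EGLN3 moved in opposite directions the other way round, with a fall in SCC-15 and a rise in CAL-27, a pattern that 1.91% of all genes showed. The difference was -0.29 ± 0.045 for HIF1A (adjusted p = 1.98e-07). PFKFB3, the inducible producer of the phosphofructokinase activator, had 51.7, 48.5 and 46.5 CPM in SCC-15 shTTK libraries, against 56.7, 55.95 and 56.5 CPM in SCC-15 shControl libraries (log2 fold change -0.21 ± 0.051, adjusted p = 0.000899). In the other line PFKFB3 had 117, 120.0 and 112 CPM in CAL-27 shTTK libraries, against 98.8, 106 and 102 CPM in CAL-27 shControl libraries (log2 fold change 0.19 ± 0.044, adjusted p = 0.000551). No shTTK value of PFKFB3 lay within the range of its controls in either line, and the difference was -0.39 ± 0.067 (adjusted p = 2.56e-06). EGLN3 differed by -1.08 ± 0.17 and NDRG1 by -1.42 ± 0.17; NDRG1 did not pass in SCC-15, with 134, 136 and 161 CPM in SCC-15 shTTK libraries, against 149, 182 and 196 CPM in SCC-15 shControl libraries (log2 fold change -0.29 ± 0.12, adjusted p = 0.13), where the groups overlapped.

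SLC16A3 fell further in SCC-15 than in CAL-27, a difference of -0.31 ± 0.056 (adjusted p = 1.04e-05). PFKM had 177, 177 and 178 CPM in SCC-15 shTTK libraries, against 178, 189.8 and 187 CPM in SCC-15 shControl libraries (log2 fold change -0.058 ± 0.037, adjusted p = 0.262). In the other line PFKM had 100.1, 109 and 105 CPM in CAL-27 shTTK libraries, against 89.05, 86.2 and 91.6 CPM in CAL-27 shControl libraries (log2 fold change 0.24 ± 0.041, adjusted p = 2.9e-06), where all shTTK libraries were higher, and the difference was -0.30 ± 0.055 (adjusted p = 1.54e-05). Of the 45 genes 1 rose in both lines, ADM, where 2.87% of all genes did, and 5 fell in both, where 4.01% did, namely PKM, SLC16A3, GBE1, EGLN1 and FUT11. GBE1 was the largest of these, at -0.72 in SCC-15 and -0.39 in CAL-27, and its change differed between the lines (-0.33 ± 0.12, adjusted p = 0.0253), though not without CAL-27 shTTK library 2 (adjusted p = 0.0957), SCC-15 shTTK library 3 (adjusted p = 0.116) or SCC-15 shControl library 1 (adjusted p = 0.0692). Of the 5 genes that fell in both, SLC16A3 and FUT11 passed narrowly in CAL-27. Their CAL-27 falls did not pass in 16 of 21 (SLC16A3) and 13 of 21 (FUT11) alternative settings. The 10 genes that passed in neither line were the enzymes ENO2 and LDHA, the flux regulator PDK1, the HIF regulator VHL, and the HIF targets ANGPTL4, BNIP3L, ANKRD37, KDM3A, PLOD2 and LOX. CA9, LOX, ANGPTL4 and ANKRD37 had under 3 CPM in SCC-15, so small changes of these genes were not detectable at this depth there.

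**Figure D5:**
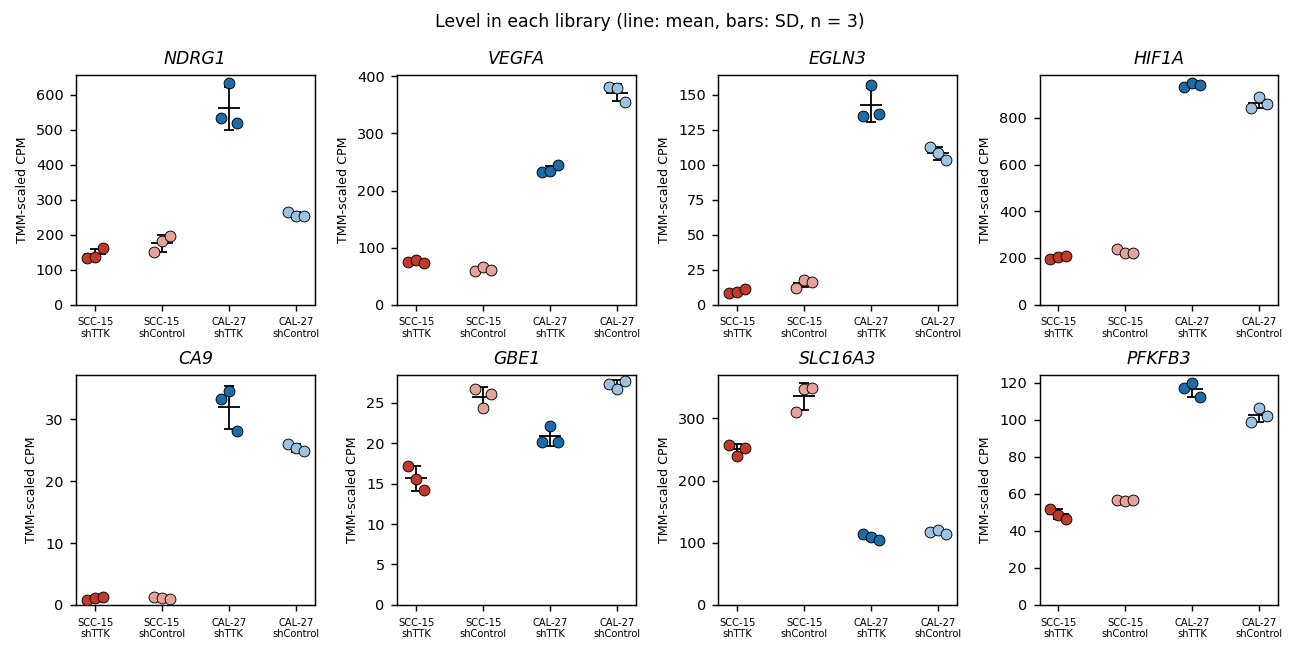
TMM-scaled CPM (vertical axes from 0) of 8 genes in each library of the 4 groups; points are libraries, lines are means and bars are SD (n = 3). VEGFA is higher with shTTK in SCC-15 and lower in CAL-27, and NDRG1 in CAL-27 lies at 518 to 633 CPM with shTTK, against 252 to 265 CPM with shControl.

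Further genes of the same pathways, listed by function, were read in the same fit, where 27.7% of all genes tested were called in SCC-15, 27.3% in CAL-27 and 25.4% in the difference between lines. Of 11 other glycolysis genes tested, 3 fell in SCC-15, namely ADPGK (-0.26), HKDC1 (-1.27) and HK1 (-0.09), and BPGM rose in CAL-27 (0.31). Of 8 pentose phosphate genes, which branch off glycolysis to make NADPH and ribose, TALDO1 rose in SCC-15 (0.33), while 4 fell in CAL-27, among them PGD (-0.21) and TALDO1 (-0.23). The change of 4 of these 8 was higher in SCC-15 than in CAL-27. Of 13 glycogen and gluconeogenesis genes 3 rose and 3 fell in each line. In SCC-15 the glycogen synthase GYS1 (0.27) and the glycogen phosphorylase PYGB (0.23) rose, opposite in direction to GBE1, and a second phosphorylase, PYGL, fell (-0.15). In CAL-27 PYGL rose (0.38), and GYG1, the primer of glycogen synthesis, fell (-0.34). PCK2, the mitochondrial enzyme that makes phosphoenolpyruvate, rose in SCC-15 (0.40) and in CAL-27 (0.67), and PGM2 fell in SCC-15 (-0.59). Of 18 pyruvate dehydrogenase and TCA cycle genes 2 rose and 8 fell in SCC-15, led by CS (-0.25), DLD (-0.22) and IDH3A (-0.19), and 4 rose and 3 fell in CAL-27, where PDP1, which activates pyruvate dehydrogenase, fell by 0.39.

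Of 8 other HIF pathway genes 1 rose in CAL-27, ARNT, the beta subunit of HIF (0.15, adjusted p = 0.0462). ARNT passed with limma-voom as well, and no gene of the list passed with DESeq2. In SCC-15 none of the 8 passed in edgeR's quasi-likelihood test, 1 had an unadjusted p under 0.05, and the count was 0 with DESeq2 and with limma-voom. Of 27 other hypoxia-responsive genes 6 rose and 6 fell in SCC-15, where 27.7% of all genes were called, with the smallest adjusted p for AK4, an adenylate kinase of mitochondria (-1.32), and for CITED2, a competitor of HIF for its coactivator (0.42). In CAL-27 8 rose and 7 fell, where 27.3% of all genes were called, and AK4 fell there too (-0.82). STC2, a secreted glycoprotein, rose in SCC-15 (0.43) and fell in CAL-27 (-0.27). Between the controls 18 of these 27 were lower and 5 higher in SCC-15, where 76.0% of all genes were called, with STC1 lower by the most (-8.79, from 0, 4 and 3 counts in SCC-15 controls) and ERO1A at -1.59. AK4 has a processed copy in the genome, and how the authors' counting treated reads that map to several places is not given in the sources used here.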

How the data were processed

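Per the submitters' processing notes, featureCounts 2.0.1, STAR 2.7.7a and Trim Galore 0.6.6 were used with the human build hg38, and the table the authors deposited gives an unnormalised count for each gene symbol in 12 libraries. The sources used here do not give the annotation release, the strand setting or how reads with several matches were counted. The 46 genes and the other lists were chosen with earlier results of these data known. A single edgeR 4.0.16 quasi-likelihood fit (R 4.3.3, TMM scaling, filterByExpr, robust, 4 group means, all 12 libraries) covered the 16946 genes that passed the filter, p-values were adjusted over all of them (Benjamini-Hochberg), and a gene was called at an adjusted p under 0.05. Each standard error was taken from the fold change and the F statistic of its test. CPM use TMM-scaled library sizes, and lengths come from exons of GENCODE 29, matched by symbol for 58708 of 58735 table lines. Genes given with values per library were up to 6 per direction and comparison by size of change among those called, the 6 with the smallest adjusted p between lines, and HIF1A, EPAS1, GAPDH and LDHA. Of each other pathway list up to 3 genes per direction were named by adjusted p. The fitting code was tested on simulated counts. Alternatives were RLE scaling, DESeq2 1.42.0, limma-voom (limma 3.58.1), other filters, each line alone, a replicate block, library sizes without the 46 genes, and leaving out libraries. Some genes of the other lists are not reported here by name.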

Additional observations from a re-analysis of the deposited data

Results flagged for a closer look

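For 20 of the 45 genes the change under TTK knockdown differed between the lines in the test of the difference itself (edgeR's quasi-likelihood test, Benjamini-Hochberg adjusted p under 0.05), where 25.4% of all genes tested did. On the log2 scale, as the change in SCC-15 minus that in CAL-27, the higher ones were VEGFA (0.9311), ALDOA (0.8364), P4HA2 (0.3213), SLC16A1 (0.2285) and ENO1 (0.1099). The lower ones among the glycolytic genes were PFKFB3 (-0.3932), ALDOC (-0.3865), GBE1 (-0.3324), SLC16A3 (-0.313), PFKM (-0.2958), PGM1 (-0.199), SLC2A1 (-0.1814), PGK1 (-0.1812) and GPI (-0.1526). The lower ones among the HIF genes were NDRG1 (-1.422), EGLN3 (-1.08), HILPDA (-0.55), EPAS1 (-0.3126), HIF1A (-0.2906) and P4HA1 (-0.2688). TTK itself fell further in SCC-15 than in CAL-27, and the part of that in these differences was not tested. Of these, ENO1 did not pass in 6 of its 20 alternative settings, PGM1 in 5, GBE1 in 3 and P4HA1 in 1. The limit on ALDOA counts given above applies to its difference as well. The median difference taken without sign was 0.1814 over the 45 genes, against 0.2375 over all genes tested.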

How the results depend on the processing

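The settings were followed for 114 results for single genes, those called in the fit of all 12 libraries and those of HIF1A, EPAS1, GAPDH and LDHA. Calls gained by any other gene were not recorded. Over all alternative settings of the 114 results, 2287 kept direction and side of the threshold, 73 lost the call, 8 gained it (GAPDH in CAL-27) and 4 turned direction. The 4 concern LDHA in SCC-15 (-0.011, not called), at 0.0054 with every gene that had a count and between -0.041 and 0.016 when 1 library was left out, with the sign turned without SCC-15 shTTK library 1 (0.0046), shTTK library 2 or shControl library 3 (0.0039); the cause was not tested. The number of the 45 genes that fell in CAL-27 was 8, and 5 with DESeq2, with every gene that had a count and with library sizes without the 46 genes, and 5 to 8 when 1 library was left out; the cause was not tested. The other counts of the 45 genes called stayed within 1.5 times in these settings. No scaling alternative moved the median of all genes by over 0.1 (log2). Same-numbered libraries did not deviate together (correlations across genes of -0.021 to 0.024 over all number pairs), so the numbers are not taken as pairs. With a replicate block 16 rose and 7 fell in CAL-27, 11 rose and 12 fell in SCC-15, and SLC16A3 in CAL-27 was the call lost (adjusted p = 0.0599). Changes of a few percent in CA9, LOX, ANGPTL4 and ANKRD37 cannot be resolved at their counts in SCC-15.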
